A study of Mus musculus with 6 samples.

Results

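Type I interferon-stimulated genes were examined in CD11b+ microglia of mice with and without the cannabinoid receptor CB1, which Cnr1 encodes. A list of 38 gene symbols was matched to the gene names of the deposited table, and 38 of 38 were among its 19225 genes. The list covers transcription factors of the interferon response, sensors of foreign RNA and DNA, and antiviral effectors. The comparison asked how CB1 deletion altered microglial transcription in mice that had not been stressed. It used 3 Cnr1+/+ and 3 Cnr1-/- libraries, with 1 library per sample. The Cnr1+/+ mice carry the strain label C57BL6/J and the genotype wt/wt. The Cnr1-/- mice carry the strain label Cnr1 tm1Zim and the genotype d/d, a constitutive deletion that affects every cell and not microglia alone. All 6 samples are labelled male, with an age of 3 months. Cells were isolated with CD11b magnetic beads from perfused brains after myelin removal. CD11b is also carried by neutrophils and monocytes, so the beads do not separate these from microglia.

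Cnr1 itself went against the labels. It was listed at 0 in each of the 3 Cnr1+/+ libraries, and at 1.41, 1.21 and 1.79 cpm in the libraries labelled Cnr1-/-, which corresponds to 13, 13 and 15 reads. The gene lies on chromosome 4 from 33924593 to 33948831 (mm10), its allele was disrupted by a cassette in the coding region, and where in the gene these reads lie was not analysed here. Directions below are therefore those of the libraries labelled Cnr1-/- relative to those labelled Cnr1+/+.

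Levels are given in cpm (counts scaled by the authors to the same total per library). In 3′ sequencing a transcript gives reads from its end only, so a longer gene does not receive more reads, and levels of different genes are compared without division by length. The value of 1 read corresponded to between 7708512 and 10723136 scaled reads per library, and the listed genes held 50.1% to 59.1% of them. For counting error alone, a gene listed at 0 could still have had 3 reads, which is 0.280 cpm in the deepest and 0.389 cpm in the shallowest library. The 10 microglia identity genes, which include Cx3cr1 and P2ry12, summed to between 14680 and 17060 cpm and were listed above 0 in all 6 libraries. The library labelled Cnr1-/- 2 stood apart. Its 10 neutrophil markers summed to 4107 cpm, against 269.5 to 531.2 in the other 5 libraries, with S100a9 at 1630 cpm, and its 7 erythrocyte markers summed to 2351 cpm against 141.9 to 242.7, with Hba-a2 at 996 cpm. Its 6 monocyte markers summed to 112.1 cpm against 28.15 to 34.6, and 4 of the 6 were highest there. Most of this sum came from Chil3, at 68.4 cpm. Ccr2 stood at 17.3 cpm there, inside its range of 15.4 to 23.4 cpm over the 6 libraries. For Gbp7, Samhd1, Ifitm3, Irf5, Pias1 and Ifnar2, values without this library are also given.

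Type I interferons bind the receptor made of Ifnar1 and Ifnar2, whose kinases Jak1 and Tyk2 phosphorylate STAT proteins, Stat2 among them. With Irf9, these form the ISGF3 complex, which binds interferon-stimulated response elements and switches on a broad set of genes against infection. Microglia carry a tonic low level of this program, and in infection, ageing and injury a subset of them expresses it strongly.

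The interferon-stimulated response element has a direct repeat of GAAA-type half-sites at its core. This was searched for as GAAANNGAA on both strands of RefSeq promoters (GRCm38.p6), from 250 bases before to 50 bases after each start site. Of the 38 members, 31 had an entry, and 18 of these (58.1%) held a core, against 9.8% of the 27025 genes in the table. Per window, 8.6% of 32851 promoters held it. The 18 members were Stat2, Ifih1, Ddx58, Eif2ak2, Ifit1, Ifit3, Ifitm2, Ifitm3, Bst2, Oas1a, Isg15, Rsad2, Gbp2, Gbp3, Gbp7, Slfn5, Ifi44 and Trim30a. A gamma-activated site, an element bound by STAT dimers, was searched for as TTCNNNGAA, which reads the same on both strands, and was found in 9 of the 31 members (29.0%) against 9.6% of genes. These 9 were Eif2ak2, Ifit2, Ifitm3, Bst2, Oas1a, Samhd1, Isg20, Gbp7 and Ifi35. The 7 members without an entry were Ifi27, Parp14, Dhx58, Rtp4, Usp18, Ly6e and Zbp1. A match describes letters in a window and is not evidence of binding.

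The stretches below, 80 bases each from upstream of the start site on the gene's strand, are shown because they carry the element for which the members are known and because the genes behind them behaved differently in these libraries. Gbp7 is the only tested member whose values did not overlap between genotype labels, and Isg15, Ifit1, Ifit3 and Rsad2 are classical targets of ISGF3 that were weakly expressed and varied between libraries. Capitals mark each core, printed as its reverse complement where it lies on the opposite strand, and neighbouring cores may overlap.
Isg15, chr4:156200847-156200926, minus strand, 3 cores: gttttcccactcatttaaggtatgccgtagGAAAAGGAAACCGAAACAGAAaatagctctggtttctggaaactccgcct
Ifit1, chr19:34640755-34640834, plus strand, 3 cores: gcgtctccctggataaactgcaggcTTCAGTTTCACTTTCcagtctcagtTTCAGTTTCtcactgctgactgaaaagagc
Ifit3, chr19:34583367-34583446, plus strand, 3 cores: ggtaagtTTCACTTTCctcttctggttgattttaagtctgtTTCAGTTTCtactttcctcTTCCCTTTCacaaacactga
Rsad2, chr12:26456528-26456607, minus strand, 1 core: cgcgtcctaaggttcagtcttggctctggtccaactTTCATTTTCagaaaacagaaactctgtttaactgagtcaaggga
Gbp7, chr3:142530248-142530327, plus strand, 1 core: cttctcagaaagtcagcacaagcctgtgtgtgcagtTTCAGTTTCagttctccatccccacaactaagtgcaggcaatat

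The members spanned a wide range of levels. Ly6e, which encodes a membrane protein that blocks entry of some viruses, had the highest mean at 307 cpm, and Zbp1, a sensor of nucleic acids in the left-handed Z form, the lowest at 1.13 cpm. Samhd1 (75.0 cpm), Gbp7 (65.3 cpm), Trim30a (63.8 cpm), Ifi27 (53.9 cpm), Lgals3bp (50.9 cpm), Parp14 (40.6 cpm) and Irf9 (26.3 cpm) came next. The minimum for testing, a mean of 10 cpm, was reached by 16 members, and the other 22 had means of 1.13 to 8.98 cpm. The tested members rested on 626 to 17019 reads over the 6 libraries, the others on 60 to 494 reads. Among the members with a low mean were Rsad2 (6.23 cpm), Isg15 (5.51 cpm), Ifit3 (4.82 cpm), Irf7 (4.58 cpm) and Ifit1 (3.03 cpm).

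**Figure D1:**
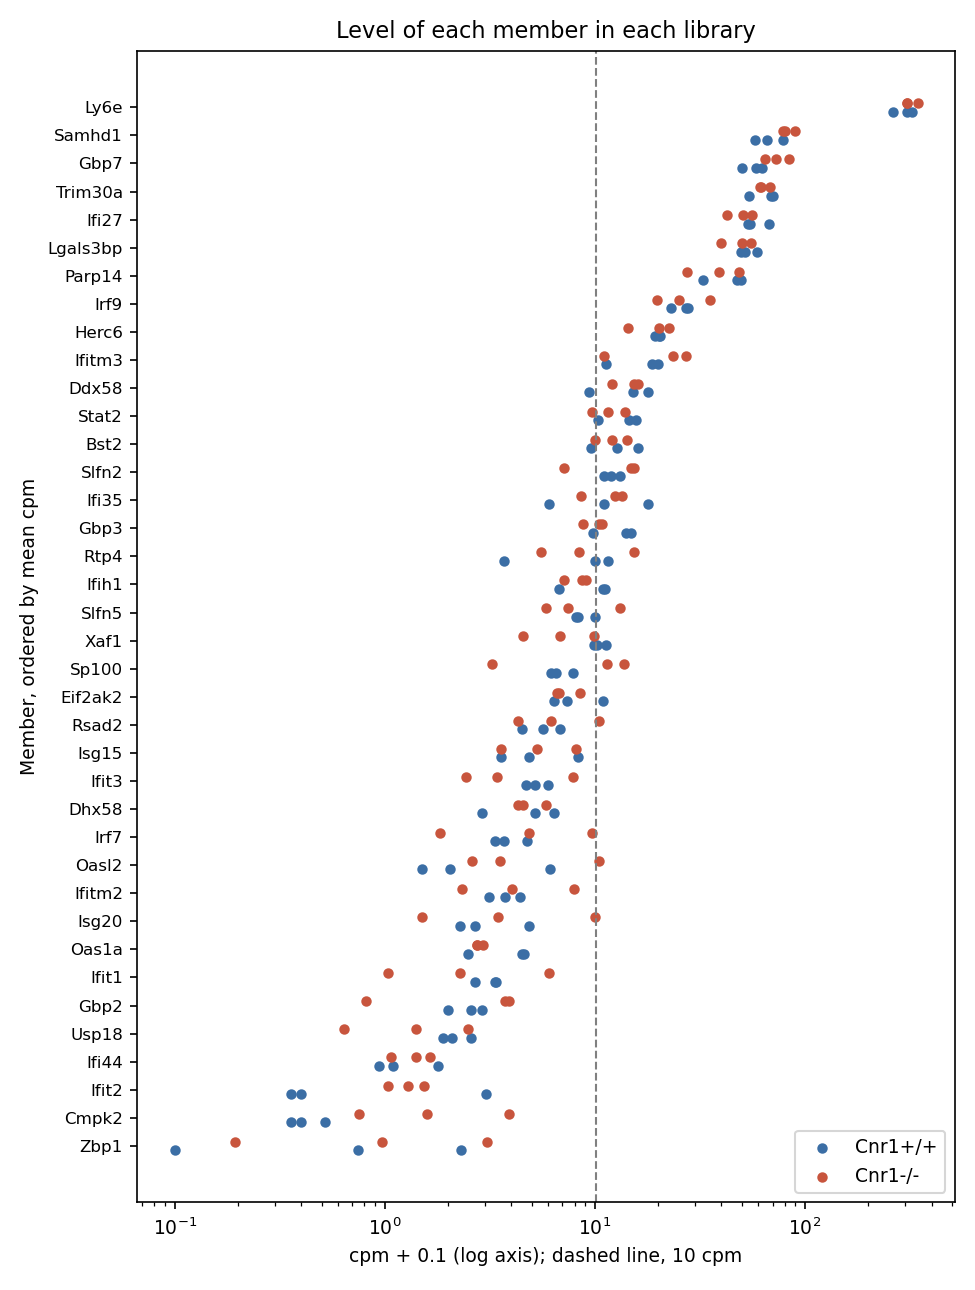
Level of each of the 38 members in each of the 6 libraries, as cpm + 0.1 on a log axis, ordered by mean cpm. Blue points are the 3 Cnr1+/+ libraries and red points the 3 libraries labelled Cnr1-/-, and the dashed line is at 10 cpm; the points of both labels overlap for all members except Gbp7 and Cmpk2.

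Genotype labels were compared in a limma fit across the 6659 genes that averaged 10 cpm or more. Of these genes, 6.02% had a nominal p under 0.05, 5.09% with a positive and 0.931% with a negative difference (Cnr1-/- less Cnr1+/+), and the median log2 fold change of all tested genes was 0.08. Among the 16 tested members, 2 passed this threshold, Gbp7 and Samhd1, both higher, and 0 passed it lower. Of the 16, 7 had a log2 fold change above 0 and 9 below, with a median of -0.02. After Benjamini-Hochberg adjustment over all tested genes, 0 members combined a fold change above 1.5 with an adjusted p below 0.1, as 0.0901% of genes did, and the smallest adjusted p of a member in limma was 0.792. The largest log2 fold change of a tested member was 0.37. All 3 values of the libraries labelled Cnr1-/- lay above all 3 Cnr1+/+ values for 1 tested member, Gbp7, against 8.85% of tested genes, and below them for 0 members, against 2.13% of genes. A two-sided exact permutation test of 3 libraries against 3 cannot give a p below 0.1.

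**Figure D2:**
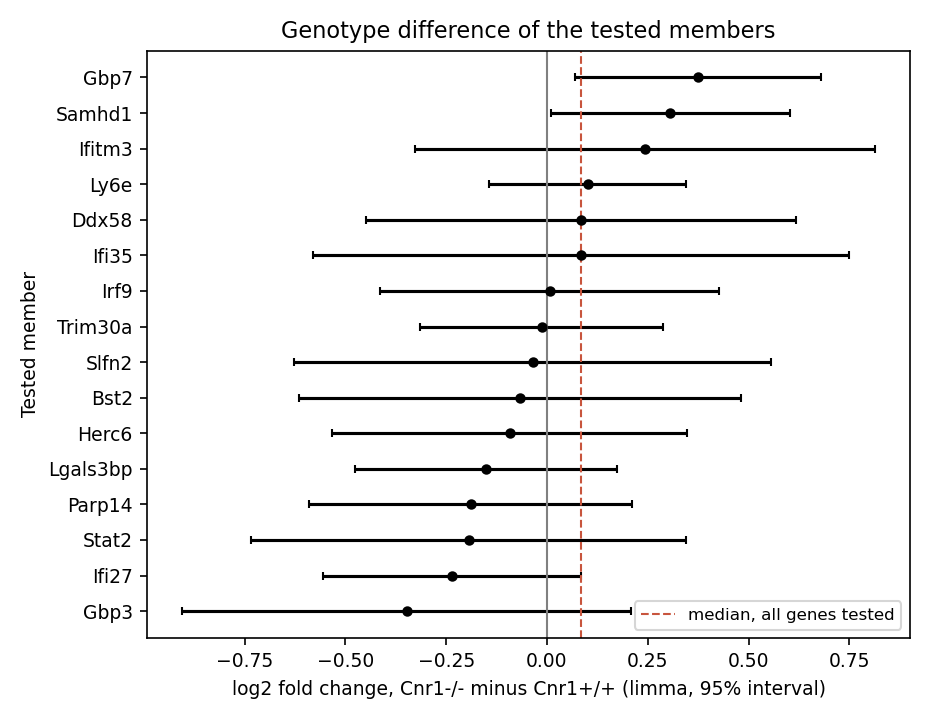
Log2 fold change of the 16 tested members in the libraries labelled Cnr1-/- relative to Cnr1+/+ (points, limma) with 95% confidence intervals (bars), ordered by size. The dashed red line is the median of all 6659 tested genes, 0.08; the intervals of Gbp7 and Samhd1 lie above 0 and the other 14 cross it.

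Gbp7 (chromosome 3, 142530342 to 142550149, plus strand) encodes a guanylate-binding protein, a large GTPase that coats vacuoles holding bacteria and parasites. It stood at 50, 62.0 and 58.4 cpm in the Cnr1+/+ libraries and at 64.4, 84.1 and 72.9 cpm in the libraries labelled Cnr1-/-. The groups did not overlap, but the highest Cnr1+/+ value lay close to the lowest value labelled Cnr1-/-. Its log2 fold change was 0.37 (SE 0.15, 95% confidence interval 0.07 to 0.68, nominal p = 0.0181, adjusted p = 0.792 in limma), and an exact permutation test (two-sided) gave p = 0.1, the smallest possible. The highest value came from the library rich in neutrophil RNA, and without that library the log2 fold change was 0.28 with a nominal p of 0.116 in limma. Without Cnr1+/+ library 1, the lowest, it was 0.29 with a nominal p of 0.0718. Its estimated reads, like those of Samhd1, were whole numbers in 1 of 6 libraries. None of the 702 end words (stretches of 50 bases from the last 400 of a transcript) of Gbp7, and 1.4% of those of Samhd1, occur in another gene. Of the end words of Gbp3, 3.4% occur in Gbp7, and the source of the fractions was not tested. The neighbouring Gbp3, 9876 bases downstream on the same strand, stood at 14.8, 9.68 and 14 cpm in Cnr1+/+ and at 8.67, 10.7 and 10.4 cpm in Cnr1-/- (log2 fold change -0.35, SE 0.27, adjusted p = 0.900 in limma). Gbp2, farther along the same cluster, had a mean of 2.55 cpm. The summed level of Gbp3 and Gbp7, which does not depend on how reads were divided between these 2 genes, was 64.9, 71.7 and 72.4 cpm in Cnr1+/+ and 73.1, 94.8 and 83.2 cpm in Cnr1-/-, without overlap.

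Samhd1 (chromosome 2, 157097533 to 157135265, minus strand) encodes a hydrolase that depletes the nucleotides viruses need for reverse transcription. It stood at 57.4, 78.5 and 66.0 cpm in Cnr1+/+ and at 78.3, 89.9 and 79.9 cpm in Cnr1-/-. The groups overlapped, because the highest Cnr1+/+ value was just above the lowest value labelled Cnr1-/-. The log2 fold change was 0.31 (SE 0.15, nominal p = 0.0437, adjusted p = 0.821 in limma, exact permutation p = 0.2, two-sided). Leaving out the library rich in neutrophil RNA gave 0.25 with a nominal p of 0.152 in limma, and omitting any of the libraries except Cnr1+/+ 2 gave a nominal p above 0.05. Median-centring of the libraries, which removed most of the shift of all genes, gave 0.23 with a nominal p of 0.0756.

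Of the transcription factors, Irf9, the DNA-binding part of ISGF3, stood at 27.1, 23.0 and 27.5 cpm in Cnr1+/+ and at 19.6, 25.1 and 35.3 cpm in Cnr1-/-. Both the lowest and the highest value were in libraries labelled Cnr1-/-, and the log2 fold change was 0.01 (95% confidence interval -0.41 to 0.43 in limma). Stat2, its partner, had a mean of 12.5 cpm, between 9.58 and 15.5 cpm, with a log2 fold change of -0.19. Reads of Irf9 and of Rnf31, which overlaps it on the same strand, may have been divided between them.

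Of the membrane proteins that block virus entry or release, Ly6e stood at 306, 263 and 321 cpm in Cnr1+/+ and at 304, 307 and 343 cpm in Cnr1-/-. The groups overlapped and the log2 fold change was 0.10 (95% confidence interval -0.14 to 0.35 in limma). Ifitm3, which hinders fusion of viruses with endosomes, ranged from 11 to 27.1 cpm with a log2 fold change of 0.24, and its highest value was in the library rich in neutrophil RNA, without which the log2 fold change was -0.01. Without Cnr1-/- 1 it was 0.64 with a nominal p of 0.0216 in limma. Of its end words, 12.3% are shared with other transcripts. Bst2, or tetherin, which holds budding virions at the cell surface, ranged from 9.48 to 16 cpm with a log2 fold change of -0.07. The differences of these 3 genes were smaller than the spread between libraries.

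Trim30a, an interferon-inducible TRIM protein, stood at 54.2, 68.5 and 70.1 cpm in Cnr1+/+ and at 60.9, 67.8 and 61.3 cpm in Cnr1-/-, a log2 fold change of -0.01. The values labelled Cnr1-/- all lay within the Cnr1+/+ range. Of its end words, 24.1% are shared, mainly with Trim30d, and the sum of both genes was 104, 129 and 132 cpm in Cnr1+/+ and 106, 116 and 118 cpm in Cnr1-/-.

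Ifi27, which encodes a small membrane protein, stood at 54.6, 53.2 and 67.1 cpm in Cnr1+/+ and at 42.4, 50.4 and 55.8 cpm in Cnr1-/-. Its log2 fold change was -0.24 (SE 0.16, adjusted p = 0.885 in limma), with a nominal p of 0.143 and overlapping groups. This depended on the scaling between libraries: after median-centring of the libraries it was -0.31 with a nominal p of 0.0298. Without Cnr1+/+ 3 or without Cnr1-/- 1 it was -0.13. Lgals3bp, a secreted glycoprotein that binds galectin, stood at 59.2, 51.9 and 49.3 cpm in Cnr1+/+ and at 39.8, 55.3 and 50.2 cpm in Cnr1-/- (log2 fold change -0.15). Parp14, a mono-ADP-ribosyltransferase, stood at 47.2, 32.6 and 49.3 cpm in Cnr1+/+ and at 27.4, 38.8 and 48.3 cpm in Cnr1-/- (log2 fold change -0.19). In both genes the lowest value was in the library labelled Cnr1-/- 1 and the groups overlapped.

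The remaining tested members were Herc6, the mouse ligase that attaches Isg15 to proteins (19.4 cpm, log2 fold change -0.09), Ddx58, the RNA sensor RIG-I (14.2 cpm, 0.09), Slfn2, a Schlafen protein of lymphoid and myeloid cells (12.2 cpm, -0.04), and Ifi35, which forms a complex with Nmi (11.4 cpm, 0.08). Of the end words of Herc6, 30% are shared with Gm45193, so its level is uncertain. Its estimated reads were whole numbers in all 6 libraries. None of these 4 had a nominal p under 0.05 in limma. Their 95% confidence intervals were wide, reaching from -0.58 to 0.75 for Ifi35, which ranged from 46 to 168 reads per library.

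The 22 members below the minimum were compared in a fit of all 19225 genes without a filter. In it, 13 of the 22 had a log2 fold change above 0 and 9 below, with a median of 0.11 against 0.07 for all genes, and 2 had a nominal p under 0.05 in limma, against 5.17% of all genes in that fit. These were Cmpk2 and Xaf1.

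Cmpk2 encodes a mitochondrial nucleotide kinase and lies 12751 bases from Rsad2 on chromosome 12, on the opposite strand and read away from it. It stood at 0.259, 0.299 and 0.421 cpm in Cnr1+/+, or 2, 3 and 4 reads, and at 0.650, 1.49 and 3.82 cpm in Cnr1-/-, or 6, 16 and 32 reads. The groups did not overlap, and the library labelled Cnr1-/- 3 held more reads than the other 5 together. Summed over libraries, 9 reads stood against 54, a ratio of 5.77 after division by the depth of the libraries, with an exact 95% interval of 2.82 to 13.3 that covers counting error only and not the spread between samples. The two-sided exact permutation p was 0.1, and in the limma fit without a filter the nominal p was 0.0351 and the adjusted p 0.932. Rsad2, or viperin, which makes a chain-terminating nucleotide from the product of Cmpk2, stood at 6.75, 5.59 and 4.42 cpm in Cnr1+/+ and at 4.22, 6.06 and 10.4 cpm in Cnr1-/-, with overlapping groups.

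Xaf1, a pro-apoptotic protein, stood at 11.2, 9.78 and 10.1 cpm in Cnr1+/+ and at 4.44, 6.71 and 9.78 cpm in Cnr1-/-. The highest value labelled Cnr1-/- reached the lowest Cnr1+/+ value, and the log2 fold change was -0.63 (nominal p = 0.0493, adjusted p = 0.954 in the limma fit without a filter, two-sided exact permutation p = 0.2).

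The IFIT genes, whose products bind foreign RNA and block its translation, lie together on chromosome 19. Ifit1 stood at 2.59, 3.29 and 3.26 cpm in Cnr1+/+ and at 2.17, 0.933 and 5.96 cpm in Cnr1-/-, between 10 and 50 reads. Ifit3 stood at 5.06, 4.59 and 5.88 cpm in Cnr1+/+ and at 3.31, 2.33 and 7.76 cpm in Cnr1-/-. In both genes the libraries labelled Cnr1-/- held the lowest and the highest values, while the 3 Cnr1+/+ values lay close together. Ifit2 was higher in Cnr1+/+ library 3 (2.94 cpm) than in any other library (0.259 to 1.43 cpm). Ifit3 shares 19.1% of its end words with other transcripts, mainly Ifit3b, and their sum was 5.97, 6.39 and 6.31 cpm in Cnr1+/+ and 3.68, 2.89 and 13 cpm in Cnr1-/-. The wider spread under the Cnr1-/- label was therefore also present in the sum.

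Irf7, the transcription factor that amplifies interferon production, stood at 3.24, 3.59 and 4.63 cpm in Cnr1+/+ and at 1.73, 4.76 and 9.54 cpm in Cnr1-/-, or 16 to 80 reads. Oasl2, of the oligoadenylate synthetase family, which senses double-stranded RNA and activates RNase L, stood at 1.95, 1.40 and 5.99 cpm in Cnr1+/+ and at 2.49, 3.45 and 10.4 cpm in Cnr1-/-. Usp18, which removes Isg15 from proteins and damps the receptor, stood at 2.46, 2.00 and 1.79 cpm in Cnr1+/+ and at 0.541, 1.31 and 2.38 cpm in Cnr1-/-. All 3 genes overlapped between labels. Isg15 itself, the ubiquitin-like modifier, ranged from 3.46 to 8.17 cpm. Oas1a ranged from 2.38 to 4.51 cpm, but 43.6% of its end words are shared, mainly with Oas1g, so its level is uncertain.

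Among the RNA sensors and their kinases, Ifih1 (MDA5) ranged from 6.62 to 11.1 cpm, Dhx58 (LGP2) from 2.79 to 6.31 cpm and Eif2ak2 (PKR) from 6.31 to 10.8 cpm, with overlap in each. Zbp1 was listed at 0 in Cnr1+/+ library 2, which allows up to 0.299 cpm, and reached 2.98 cpm in the library labelled Cnr1-/- 3. Slfn5, a Schlafen protein of the nucleus, ranged from 5.74 to 13 cpm, Rtp4, a chaperone of membrane receptors, from 3.59 to 15.3 cpm, and Ifi44 from 0.841 to 1.69 cpm. Gbp2 was lowest in the library labelled Cnr1-/- 3, at 0.716 cpm, and between 1.89 and 3.79 cpm in the others.

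Isg20, an RNA exonuclease, Ifitm2, a relative of Ifitm3, and Sp100, a nuclear body protein, were highest in the library rich in neutrophil RNA. Isg20 reached 9.88 cpm there and 1.41 to 4.73 cpm in the other 5 libraries. Ifitm2, of whose end words 25.4% are shared, reached 7.85 cpm there and 2.24 to 4.28 cpm elsewhere, and Sp100 13.6 cpm against 3.14 to 11.3 cpm. A total of 7 members were highest in that library, 18.4% of the 38, against 31.7% of all tested genes and 19.9% of genes of 1 to 10 cpm. The part of neutrophil RNA in these values was not tested.

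The lowest and highest values of the members were unevenly spread over the libraries. Of the 38 members, 17 (44.7%) had their lowest value in the library labelled Cnr1-/- 1, against 15.0% of all tested genes and 16% of all listed genes with a mean of 1 to 10 cpm. Another library of the same label, Cnr1-/- 3, held the highest value of 12 members (31.6%), against 18.4% and 19.2%. Irf7, Irf9, Herc6, Rsad2 and Slfn5, 5 members, did both. Of the 16 tested members alone, 18.8% were highest in Cnr1-/- 3, near the 18.4% of tested genes, and 31.2% in Cnr1+/+ 3, against 23.2%. Of the 22 below the minimum, 40.9% were highest in Cnr1-/- 3, against 19.2%. The shares lowest in Cnr1-/- 1 were 56.2% of the tested members and 36.4% of the 22. By role, all 3 signalling factors, all 3 genes of the Isg15 system, both Schlafen genes and 5 of the 9 members of other roles had their lowest value in Cnr1-/- 1. This held for 2 of 4 nucleotide and RNA effectors, 1 of 4 membrane factors, 1 of 3 guanylate-binding proteins, 0 of 5 sensors and kinases, 0 of 3 IFIT genes and 0 of 2 genes of the OAS family. After median-centring, 16 members were lowest in Cnr1-/- 1 and 13 highest in Cnr1-/- 3, against 13.7% and 17.2% of all tested genes. After quantile normalisation these were 15 and 12 members, against 13.1% and 16.9%. Cnr1+/+ 1 held the highest value of 8 members as deposited, of 10 after centring and of 11 after quantile normalisation, where 7.09%, 20% and 19.6% of all tested genes did so. Cnr1+/+ 2 held the lowest value of 7, 6 and 9 members, against 19.5%, 17.1% and 17.1% of all tested genes. These counts were made after the values had been seen and describe these 6 libraries.

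**Figure D3:**
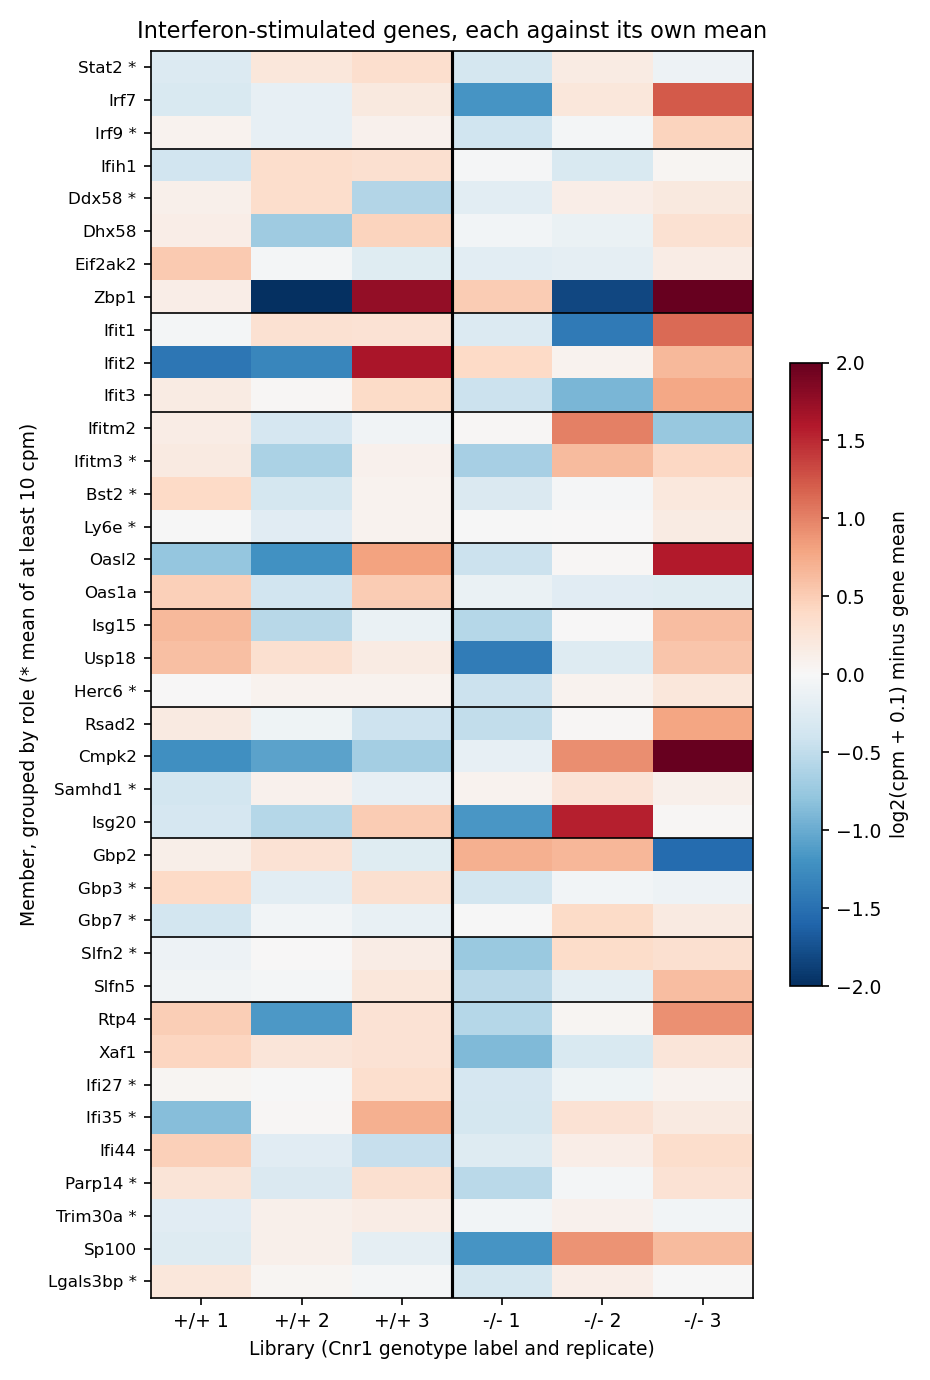
Each member's log2(cpm + 0.1) in each library less its mean over the 6 libraries, members grouped by role with horizontal lines between groups; a star marks the 16 tested members and the colours saturate at the ends of the scale. The column of Cnr1-/- 1 is mostly blue, holding the lowest value of 17 members, and that of Cnr1-/- 3 mostly red, holding the highest of 12.

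The medians of the members also differed between libraries. For the 16 tested members, the median deviation from each gene's own mean was 0.02, -0.01 and 0.09 (log2) in the Cnr1+/+ libraries and -0.35, 0.11 and 0.18 in those labelled Cnr1-/-. For all tested genes it was -0.13, -0.04 and 0.07, and -0.03, 0.13 and 0.03. For the 22 members below the minimum it was 0.14, -0.20 and 0.25, and -0.36, 0.02 and 0.61, against values between -0.03 and 0.13 for all genes of 1 to 10 cpm. Both sets of members lay below other genes of their level in Cnr1-/- 1 and above them in Cnr1-/- 3. They also lay above them in Cnr1+/+ 1, by about as much as in Cnr1-/- 3 for the tested members, and in Cnr1+/+ 2 the members of low level lay below. In Cnr1+/+ 3 both sets lay above as well, at 0.254 against 0.075 for low members and 0.085 against 0.065 for tested members. Summed over all 38 members, the level was 873.5, 824.7 and 941.5 cpm in Cnr1+/+ and 789.6, 951.2 and 1016 cpm in Cnr1-/-. Without the library labelled Cnr1-/- 1 the median log2 fold change of the tested members was 0.12, close to that of all tested genes (0.12), and without Cnr1-/- 3 it was -0.19 against 0.09. In bulk RNA, more responding cells and more RNA per cell cannot be told apart.

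**Figure D4:**
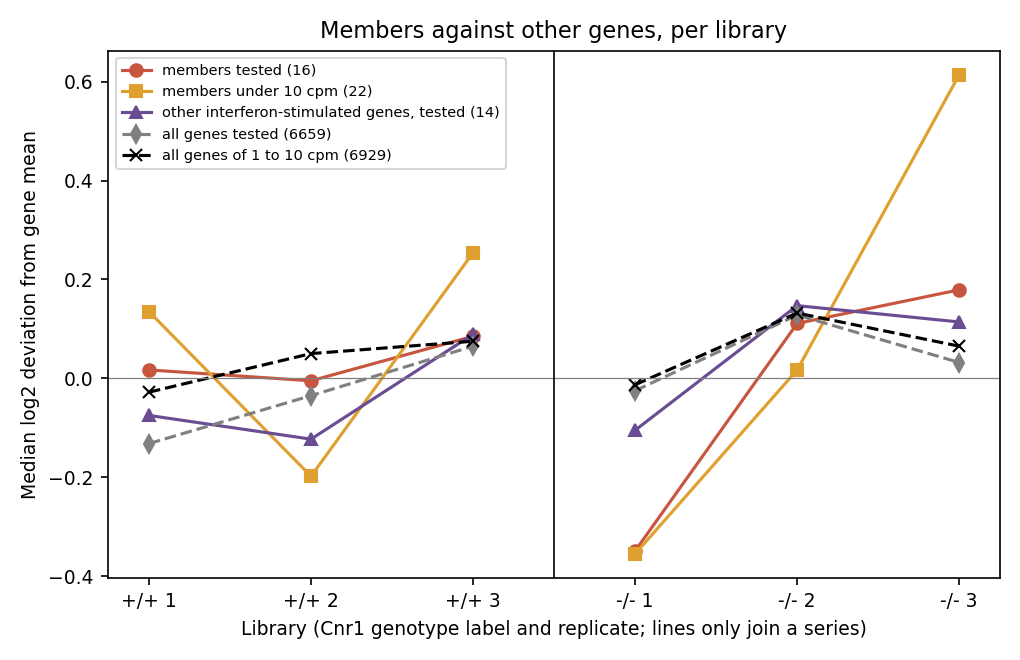
Median over the genes of a list of log2(cpm + 0.1) less each gene's mean, per library, for the tested members, the members under 10 cpm, 14 further interferon-stimulated genes and, dashed, all tested genes and all genes of 1 to 10 cpm. Both member lines fall to about -0.35 in Cnr1-/- 1 and rise to 0.18 and 0.61 in Cnr1-/- 3, while both dashed lines stay between -0.13 and 0.13.

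Markers of other cells also differed between these libraries. In Cnr1-/- 1 the 5 oligodendrocyte markers had their lowest sum, 396.3 cpm against 569.1 to 832.7 cpm in the other 5 libraries, and the border-associated macrophage markers summed to 102.4 cpm, within a range of 102.2 to 154.4 cpm. In Cnr1-/- 3 the 5 astrocyte markers had their highest sum, 538.9 cpm against 290.2 to 473.4 cpm. Endothelial markers summed to between 30.03 and 41.59 cpm and neuron markers to between 38.39 and 63.04 cpm, and the 2 listed lymphocyte markers to at most 9.989 cpm. The sum of the microglia identity genes was 15810 cpm in Cnr1-/- 1 and 16270 cpm in Cnr1-/- 3, inside the range of the Cnr1+/+ libraries. The part of these cells in the members' levels was not tested.

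The tested members tended to vary together over the 6 libraries. Their median pairwise Pearson correlation was 0.322, against 0.175 for all tested genes, and 34.2% of pairs exceeded 0.5 against 24.9%. For the 22 members of low level the median was 0.281, against 0.005 for all genes of 1 to 10 cpm. The members closest to the median of the other members were Parp14 (r = 0.936), Irf9 (0.929), Herc6 (0.885), Slfn5 (0.874) and Irf7 (0.872), each over 6 libraries. Gbp2 ran opposite to it (r = -0.793). The 2 tested members with a nominal p under 0.05 had r = 0.006 (Gbp7) and -0.258 (Samhd1), and of the pair from the fit without a filter, Cmpk2 had 0.297 and Xaf1 0.762. These values describe 6 libraries that share their depth and composition over all genes, and carry no test.

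Genes that sense or transmit interferon, and further genes induced by it, were read from the same fit, as lists of 77 genes, of which 75 were listed and 42 tested. Of the 42, 30 had a log2 fold change above 0 and 12 below, against 68.4% of all tested genes above 0. The median was 0.11 against 0.08 for all genes. Of the 42, 2 had a nominal p under 0.05 in limma, both higher, against 6.02% of all tested genes, 5.09% higher and 0.931% lower. Without overlap between labels, 5 of the 42 were higher and 1 lower, against 8.85% and 2.13% of all tested genes.

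Among ligands and receptors, Ifnar2 stood at 115, 119 and 132 cpm in Cnr1+/+ and at 136, 141 and 136 cpm in Cnr1-/-, without overlap, but with a nominal p of 0.165 in limma, and of 0.290 without the library rich in neutrophil RNA. Its partner Ifnar1 stood at 12.2, 17.9 and 14.9 cpm and at 13.5, 17.6 and 15.1 cpm, with overlap. The interferon gamma receptor chains Ifngr1 and Ifngr2 had means of 425 and 51.3 cpm, and Il10rb, shared with the receptors of interferon lambda, 68.7 cpm. None of the 5 tested genes of this list had a nominal p under 0.05.

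In the list of kinases, STATs and interferon regulatory factors, 9 of 10 tested genes had a log2 fold change above 0 (68.4% of all tested genes did), with a median of 0.12, and 1 had a nominal p under 0.05. This was Irf5, the factor downstream of Toll-like receptors that drives inflammatory cytokines, at 80.7, 102 and 97.3 cpm in Cnr1+/+ and 116, 135 and 112 cpm in Cnr1-/-. Its groups did not overlap, with a log2 fold change of 0.38 (SE 0.14, adjusted p = 0.690 in limma) and a nominal p of 0.00883. Without the library rich in neutrophil RNA it was 0.30 with a nominal p of 0.0617. Irf8, a lineage factor of microglia, was the most abundant at 416 cpm, followed by Jak1 at 191 cpm. Stat3 had a mean of 114 cpm and Tyk2 25.2 cpm, and each of these 4 had a nominal p above 0.05. Stat3 was also higher without overlap, at 115, 95.5 and 110 cpm in Cnr1+/+ and at 116, 132 and 116 cpm in Cnr1-/-.

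Of the sensing genes upstream of interferon, 5 of 8 tested had a log2 fold change above 0 and none had a nominal p under 0.05. The most abundant were Unc93b1, which delivers endosomal Toll-like receptors (278 cpm), Tmem173, which encodes STING (183 cpm), and Tlr7 (80 cpm). Of the negative regulators, 3 of 5 had a log2 fold change above 0. Pias1, an inhibitor of STAT signalling, stood at 29.1, 34.9 and 31.9 cpm in Cnr1+/+ and at 41.2, 41.6 and 42.6 cpm in Cnr1-/-, without overlap (log2 fold change 0.39, adjusted p = 0.792 in limma, and a nominal p of 0.0234). Its nominal p was 0.0497 without the library rich in neutrophil RNA, 0.0651 without Cnr1+/+ 1 and 0.0623 without Cnr1-/- 3, with log2 fold changes of 0.39, 0.33 and 0.38. The phosphatase gene Ptpn6 (86.6 cpm) and the feedback inhibitor Socs3 (16.2 cpm) had a nominal p above 0.05.

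A list of 43 other interferon-stimulated genes gave 14 that could be tested, 9 with a log2 fold change above 0 and 5 below, a median of 0.12, and none with a nominal p under 0.05 in limma. The most abundant were Shisa5 (64.7 cpm), Trim30d (53.7 cpm) and Uba7, the enzyme that activates Isg15 (36.0 cpm). Of the 43, 15 (34.9%) were highest in Cnr1-/- 3, against 18.4% of all tested genes and 19.2% of genes of 1 to 10 cpm, and 14 (32.6%) were lowest in Cnr1-/- 1, against 15.0% and 16%. The medians of the 14 tested genes were lowest in Cnr1+/+ 2 (-0.12) and Cnr1-/- 1 (-0.11) and highest in Cnr1-/- 2 (0.15) and Cnr1-/- 3 (0.11). Mx1 reached 6.56 cpm in Cnr1-/- 3 and at most 2.33 cpm in the other libraries, and Ifit3b 5.24 cpm against at most 1.80 cpm. Of the 43, 7 (16.3%) did not overlap between labels, 4 higher and 3 lower, against 10.1% of all 19225 genes. The chemokine gene Cxcl10 stood at 1.17, 0.2 and 0.841 cpm in Cnr1+/+ and at 2.6, 2.05 and 4.29 cpm in Cnr1-/-, without overlap. In the limma fit without a filter its nominal p was 0.00915 and its adjusted p 0.803, and its fitted fold change depends on the pseudocount. In the other direction, Irgm2 stood at 33.5, 29.8 and 30.3 cpm in Cnr1+/+ and at 22.6, 28.2 and 27.3 cpm in Cnr1-/-, without overlap (log2 fold change -0.27, adjusted p = 0.887 in limma). Irgm2 overlaps the related Igtp on the same strand of chromosome 11, so reads may have been divided between them, and their summed level was 51.9, 46.0 and 51.4 cpm in Cnr1+/+ and 40.6, 49.3 and 48.4 cpm in Cnr1-/-, with overlap. Ddx60 and Oas1c, both below the minimum, were also lower without overlap, with means of 9.11 and 6.82 cpm for Ddx60 and of 1.01 and 0.564 cpm for Oas1c. Higher without overlap were also Sp110, among the tested genes, and Mx2 and Gbp5 below the minimum. These genes, other than the 3 most abundant, were chosen after their values were seen.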

How the data were processed

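Polyadenylated RNA was sequenced from its 3′ end (QuantSeq) in 6 libraries. The authors aligned reads to mm10 with STAR, split ambiguous reads by the expectation-maximisation step of Partek, and applied TMM. The deposited values are CPM made by the authors with this scaling, which assumes that most genes do not change. The value of 1 read was derived from low values, and 24 of 38 members held whole reads (within 0.1) in all libraries. Ambiguous reads were divided by estimate, so tests for counts were not used.

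Log2 (cpm + 0.1) was fitted with limma (version 3.58.1, R version 4.3.3; lmFit and trended eBayes), genotype as the only term, with Benjamini-Hochberg adjustment. The pseudocount understates changes of weakly expressed genes. The methods give 3 mice per genotype, so p-values measure the spread between mice prepared and sequenced as these were. The members, gene lists and tests were chosen with earlier results of these data known. Of the steps, only the limma fit was tested on simulated data. Library values are given for members with a nominal p under 0.05 or without overlap and for the 8 most abundant tested members; those of other members were chosen after they were seen. In the pathway lists, Ifnar1, Ifnar2, Jak1, Tyk2, genes with a nominal p under 0.05 and the 3 most abundant genes are named. Alternatives were other pseudocounts (0.01 and 1), no filter, a minimum of 20 cpm, other scalings, eBayes without trend, vooma weights, a replicate block, and each library left out. Counts of lowest and highest libraries under other scalings, and Irf5, Pias1 and Ifnar2 without each library, were added after seeing the data. Protein identities were not analysed here. A gene that this rule would also name is not reported here.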

Additional observations from a re-analysis of the deposited data

How the results depend on the processing

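No member combined a fold change above 1.5 with an adjusted p below 0.1 under any alternative run with limma, while between 0 and 4 had a nominal p under 0.05. Without a filter 993 genes (5.17%) and 4 of 38 members (Cmpk2, Gbp7, Samhd1 and Xaf1) had a nominal p under 0.05. In that setting 2 of 38 members (5.26%) did not overlap between labels, against 10.1% of the 19225 genes. With a minimum mean of 20 cpm 263 genes (6.37%) and 2 of 8 members passed. Without the trend 0 of 16 members did, against 5.87% of genes, with nominal values of 0.051 for Gbp7 and 0.1 for Samhd1 in limma. Leaving out each library in turn gave 251 to 600 genes (3.81% to 9.07%), 0 to 2 members and 1 to 4 members without overlap. The 4, of 16 (25%), were found without Cnr1-/- 1, where 22.5% of genes did not overlap, and over all 6 fits this share of genes was 17.5% to 26.1%. The number of members with a nominal p under 0.05 was 0 without Cnr1+/+ 1 or without the library labelled Cnr1-/- 2, and 1, Gbp7, without Cnr1+/+ 3 or Cnr1-/- 3. Without Cnr1-/- 1 these were Gbp7 and Ifitm3 (log2 fold change 0.64, nominal p of 0.0216 for Ifitm3). The genes with a nominal p under 0.05 were split into 339 higher and 62 lower. Centring gave 375 genes (5.63%), of which 197 were higher, and quantile normalisation 360 (5.41%), of which 163 were higher. Both move the median of all genes near 0. Under both, Gbp7 and Ifi27 passed and Samhd1 did not (log2 fold change 0.23 and 0.21). Ly6e changed sign with quantile normalisation (-0.01), and Irf9 with centring (-0.069) and quantile normalisation (-0.064). Leaving out libraries gave -0.131 to 0.055 for Trim30a, -0.377 to 0.031 for Parp14 and -0.22 to 0.21 for Irf9, none past the threshold. The median of the tested members ranged from -0.19 to 0.12, and each alternative lay within 0.206 of the main value of -0.02. This 0.206 is the pooled SD of single-library medians within a label, not the error of a difference between labels. The cause of these changes was not tested. Same-numbered libraries of both labels did not deviate together over all tested genes (correlations -0.06, -0.03 and -0.03). This gave no sign of pairing by number, but it cannot exclude that same-numbered mice were related or prepared together. With the replicate block 421 genes (6.32%) and 2 of 16 members passed and the median was -0.02.

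Depth limits the 22 members below 10 cpm, several of which rest on fewer than 100 reads in all libraries together, and 3 mice per label limit every comparison.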
